A study of Mus musculus with 2 samples.

Results

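The SR proteins and the heterogeneous nuclear ribonucleoproteins (hnRNPs) were described as one module of splicing factors in single cells of the mouse fetal ovary. Members were chosen by gene symbol alone: every gene of the count tables named Srsf followed by a number, every gene whose symbol starts with Hnrnp, and the SR-like genes Tra2a and Tra2b. This gave 33 genes of 27998, made up of 11 Srsf genes, 2 Tra2 genes and 20 Hnrnp genes. SR proteins carry RNA recognition motifs and a domain rich in arginine and serine. They bind exonic enhancers, recruit the spliceosome and favour exon inclusion, and their activity is set by phosphorylation through the SRPK and CLK kinases. hnRNPs coat nascent transcripts, and several of them act as silencers of nearby splice sites. Several proteins of both families also take part in mRNA export, stability and translation, and many regulate their own transcripts through exons that trigger nonsense-mediated decay.

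Ovaries were taken at E15.5 from female embryos, when most germ cells are in meiotic prophase. The work addressed what the loss of the glucocorticoid receptor (GR, encoded by Nr3c1) does to these cells, and elsewhere it covered Tra2b, Srsf7, Hnrnpa2b1 and Hnrnph3 by qRT-PCR in testis after treatment with dexamethasone, a GR agonist. One library held ovaries of embryos with a homozygous GR deletion (KO), pooled from 2 embryos, and the other held wild-type (WT) ovaries pooled from 4 embryos. The KO allele lacks exon 3 of Nr3c1. It was made by recombining the floxed Nr3c1tm1.1Jda allele with a β-actin cre, so the receptor is absent from every cell and the ovary develops in an animal without GR. Both libraries carry the Pou5f1-EGFP transgene, which labels germ cells green. Germ cells sorted by this fluorescence were mixed with GFP-negative somatic cells at 60 to 40 before capture, so shares of germ and somatic cells reflect the mixing. Each genotype is 1 library. No difference between KO and WT has a replicate check, no test was run and no p-value is given. Genotype cannot be told apart from embryo pool, sort or capture.

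The WT library held 11430 cell barcodes, of which 9045 passed the limits of the study, and the KO library held 17829, of which 15502 passed. The median kept cell had 15685 UMIs in WT and 10194.5 in KO. UMIs, unique molecular identifiers, mark single captured transcripts. The libraries shared 27 barcodes among kept cells. Levels are given as counts per 1000000 UMIs of a class of cells (CPM), with exact 95% Poisson intervals, and ratios as log2 of 2 CPM values with exact 95% intervals. These intervals cover counting error only. A count of a gene's 3-prime ends does not depend on transcript length, and it says nothing of which exons a transcript holds. Orders of different genes by level are descriptions. In 5 members the level is uncertain, since near-identical copies of their 3-prime end lie in the genome: Hnrnpa3, Hnrnpf, Hnrnpk, Hnrnpc and Hnrnph2. Clusters were formed without the 33 members and named from marker genes. Germ-like cells numbered 6358 in WT and 9093 in KO, granulosa-like cells 920 and 2024, theca-like cells 824 and 1887, and epithelia-like cells 399 and 1073. Cells of the endothelia-like, immune-like, perivascular-like and erythroid-like classes were few, with 15 to 31 cells each in WT and 51 to 136 in KO. One further cluster, of 450 WT and 1127 KO cells, had germ cell markers but did not meet the rule for a name, and it is described separately. The 3-prime tag of Nr3c1 lies outside the deleted exon, so its level does not show the deletion itself. It was lower in KO in each main class, as the study also reported for total transcript in all cell types. Nr3c1 stood at 71.0 CPM in WT and 10.9 CPM in KO germ-like cells and at 25.1 and 6.14 CPM in granulosa-like cells. In theca-like cells it stood at 45.3 and 11.6 CPM, and in epithelia-like cells at 27.0 and 6.54 CPM.

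Members were measured in every class, and the summed level of the module was lower in germ-like cells than in the main somatic classes. Summed over the 33 members, the level was 4756.2 CPM in WT and 4854.8 CPM in KO germ-like cells. It was 6367.5 and 6136.8 CPM in granulosa-like cells, 8391.3 and 7972.1 CPM in theca-like cells and 8456.3 and 8535.5 CPM in those called epithelia-like. The difference lay mostly in the hnRNP genes, which summed to 2778.1 CPM in WT germ-like and 5993.3 CPM in WT epithelia-like cells. The Srsf genes differed less, with sums of 1669.2 and 2056.5 CPM in the same classes. Against granulosa-like cells the Srsf sums were 1669.2 and 1708.4 CPM in WT, and in KO the germ-like sum was the higher, at 1723.1 against 1646.2 CPM. The lowest sum was in the erythroid-like cells, at 3361.8 CPM in WT and 3498.2 CPM in KO. There the erythroid markers, mostly haemoglobin genes, summed to 324277.1 CPM in WT and 361109.7 CPM in KO. They fill a large part of the total that CPM is scaled to. The members' sum without them was not computed, so this class cannot be ranked against germ-like cells.

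Within WT germ-like cells the members covered a wide range of levels, with a median of 129 CPM. The highest was Hnrnpa2b1, an RNA-binding protein of the A/B group, at 405 CPM (interval 401 to 408). Hnrnpc, which binds uridine tracts, followed at 303 CPM and Srsf3, the smallest SR protein, at 276 CPM. Next came Srsf9 at 266 CPM, Hnrnpf at 252 CPM and Hnrnpm at 251 CPM. Hnrnpk, which binds cytidine-rich RNA, stood at 232 CPM and Tra2a, a sequence-specific splicing activator, at 203 CPM. The lowest 4 were Srsf12 at 4.67 CPM, Hnrnph2 at 19.4 CPM, Srsf4 at 20.4 CPM and Hnrnpll at 37.8 CPM. In this order the counting intervals of Hnrnpf and Hnrnpm overlapped, as did those of Hnrnph2 and Srsf4. Srsf12 was the lowest member in every class of both libraries, and in the WT endothelia-like and perivascular-like cells it had 0 UMIs.

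**Figure D1:**
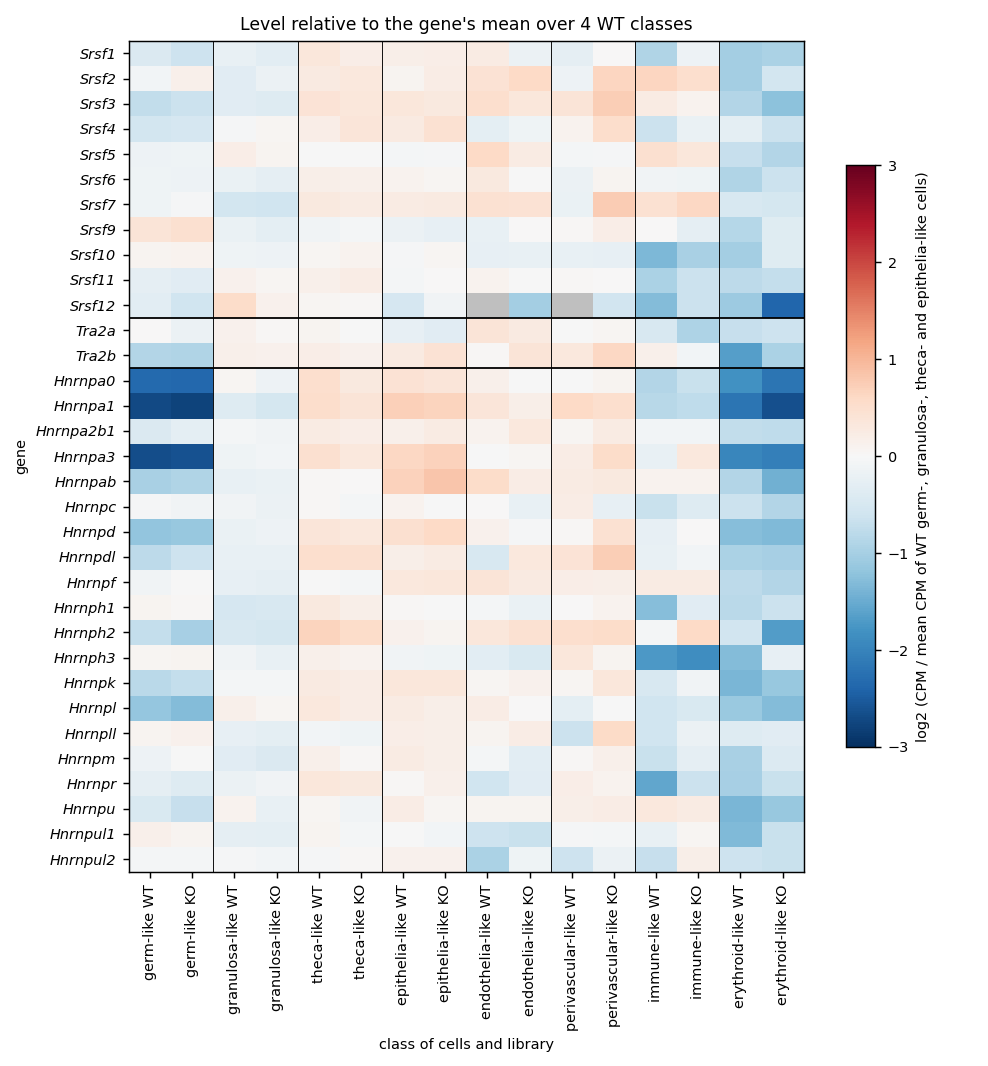
Levels of the 33 members in 8 cell classes of the WT and KO libraries, as log2 of the CPM over the mean CPM of the 4 main WT classes of that gene, with grey for 0 UMIs. In the germ-like columns of both libraries the lowest values are those of Hnrnpa1, Hnrnpa3 and Hnrnpa0. The erythroid-like columns are low for most genes, in cells where haemoglobin transcripts fill a large part of the total.

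Among the 4 main classes, 19 members were lowest in germ-like cells in WT and 19 in KO, of which 18 were the same genes. A further 12 members were lowest in granulosa-like cells in both libraries, among them Srsf7 and Hnrnph1. The highest level lay in theca-like cells for 14 members in WT and 11 in KO, and in epithelia-like cells for 13 and 16. The 3 members highest in germ-like cells in both libraries were Srsf9, Srsf10 and Hnrnpul1. For 30 of the 33 members the highest class was the same in both libraries. These orders are descriptions, and many neighbouring classes differed by less than their counting intervals. The shares of all genes lowest or highest in each class were not counted, so these counts do not set the members apart.

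The largest differences in the module were those of 3 members of the hnRNP A/B group, Hnrnpa1, Hnrnpa3 and Hnrnpa0. Hnrnpa1, a silencer of exon inclusion that shuttles between nucleus and cytoplasm, lies on mouse chromosome 15 (chr15:103240432-103246692, plus strand, GRCm38). It stood at 66.2 CPM in WT germ-like cells, against 328 CPM in granulosa-like cells, 625 CPM in the theca-like and 706 CPM in the epithelia-like class. In KO the levels were 63.1, 299, 563 and 684 CPM in the same order. The epithelia-like level was 10.7-fold the germ-like level in WT and 10.8-fold in KO, and the intervals of germ-like and somatic classes did not overlap.

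Hnrnpa3, a close relative of Hnrnpa1, lies at chr2:75659261-75669407 on the plus strand. Its WT levels were 55.2 CPM in germ-like cells and 319, 483 and 538 CPM in the 3 somatic classes, and its KO levels were 57.1, 327, 437 and 565 CPM. The gene has 21 near-identical copies in the genome that cover its 3-prime end, of which Gm6793 and Gm9242 are rows of the count table, so its level is uncertain where reads could be split. Hnrnpa0, a gene with a single annotated transcript at chr13:58125879-58128556 on the minus strand, stood at 108 CPM in WT germ-like cells and at 566, 773 and 729 CPM in the 3 somatic classes. In KO it stood at 106 CPM against 490, 665 and 699 CPM. All 3 genes were thus several-fold lower in germ-like cells in both libraries.

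The shares of cells with a UMI followed the same order after every cell was thinned to 3000 UMIs, a depth that left out 0 cells. For Hnrnpa1, 17.0% of WT germ-like cells had a UMI (Clopper-Pearson 95% interval 16.1 to 17.9), against 60.1% in the granulosa-like, 85.2% in the theca-like and 87.0% in the epithelia-like class. Without thinning the germ-like share was 60.9% and the granulosa-like share 93.3%. For Hnrnpa0 the thinned WT shares were 26.2% in germ-like and 80.5% to 90.5% in the somatic classes. Markers of the 3 somatic classes summed in germ-like cells to between 0.701% and 1.276% of their level in their own class. The germ-like levels of these 3 genes were 9.24% to 21.7% of their somatic CPM. These genes are high in all 3 somatic classes, unlike the markers of 1 class, and the part of somatic RNA in their germ-like levels was not tested. In the other direction, germ markers in the somatic classes reached 9.454% to 23.6% of their germ-like level, and the part of this germ RNA in the somatic levels was not tested.

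To count members against the rest of the transcriptome, levels were set on the scale of ln(CP10k + 1), in which CP10k stands for UMIs per 10000 UMIs of the class. A gene was called higher or lower past a difference of 0.25 on that scale, a size limit taken from the methods of the study. Genes with fewer than 100 UMIs in the 2 sides together were not counted. This scale understates changes of low genes. All 33 members had 100 UMIs in each comparison of classes. Against granulosa-like cells, 8 members were lower in WT germ-like cells, beside 11.3% of all genes lower, and 1 was higher, beside 11.3% of all genes higher. In KO the counts were 8 lower (10.3% of all genes) and 1 higher (10.2%). Against theca-like cells, 12 members were lower in WT (9.78% of all genes) and 0 higher (10.8%), and in KO 13 were lower (8.93%) and 1 higher (9.33%). Against epithelia-like cells, 11 members were lower in WT (10.2%) and 1 higher (11.7%), and in KO 11 were lower (10.1%) and 1 higher (10.9%). The limit is reached more easily by abundant genes, and most members are abundant, so the counts were repeated among genes at 100 CPM or more on either side, a choice made after the data were seen. Against granulosa-like cells in WT, 8 of 24 such members (33.3%) were lower beside 30.8% of such genes, a share near the background, and 1 (4.17%) was higher beside 42.7%. Against theca-like cells in WT, 12 of 26 (46.2%) were lower beside 26.9% of genes and 0 higher beside 43.7%, and against epithelia-like cells 11 of 24 (45.8%) were lower beside 29.2% and 1 higher beside 43.7%. With both directions together, fewer of these members than of genes at this level passed: 9 of 24 beside 73.5% of genes, 12 of 26 beside 70.7% and 12 of 24 beside 72.8%.

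The median log2 ratio of the members was -0.24 against granulosa-like cells in WT, where the median over all genes was 0.09. It was -0.42 against theca-like and -0.40 against epithelia-like cells, with medians over all genes of 0.17 and 0.22. In KO the members' medians were -0.25, -0.56 and -0.49, and those over all genes 0.02, 0.06 and 0.10. These medians describe lists of unequal size in 1 library each and carry no test.

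**Figure D2:**
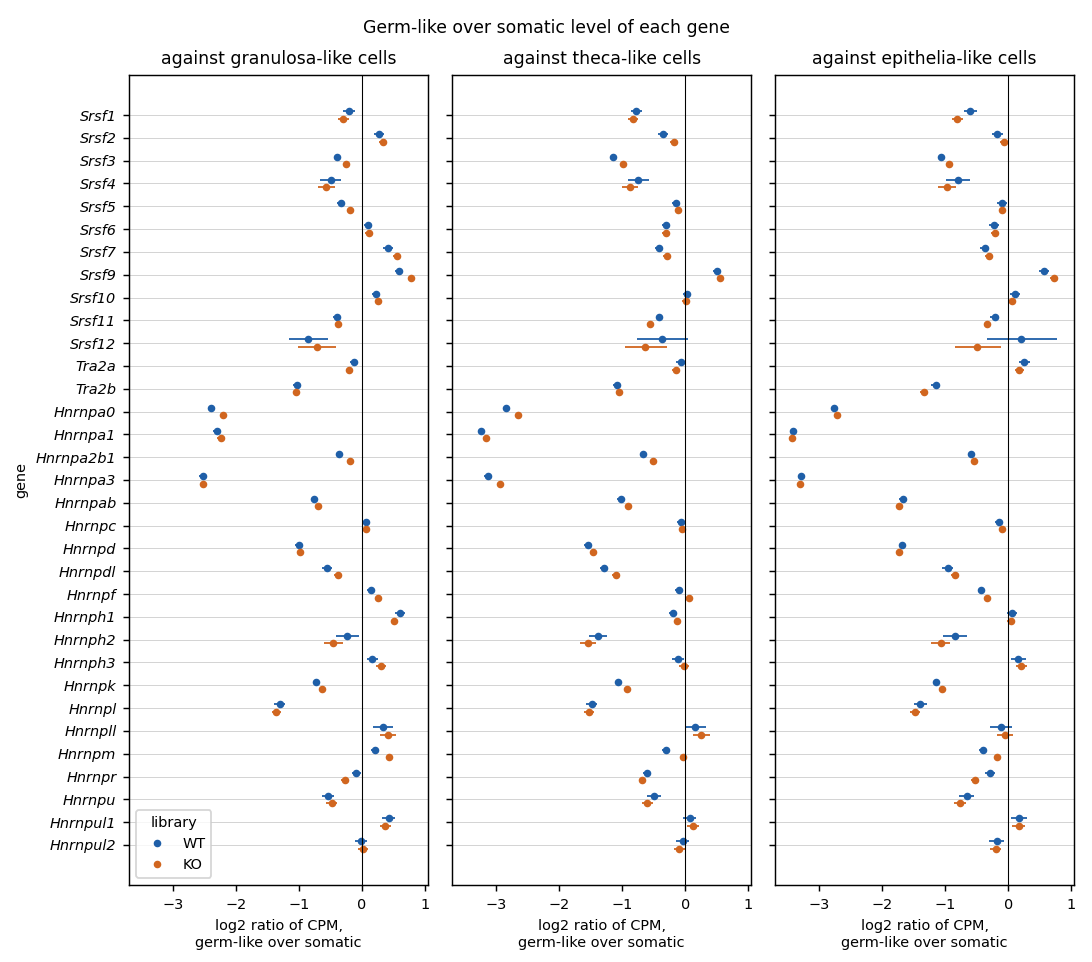
Log2 ratio of CPM in germ-like over each of the 3 somatic classes for each of the 33 members, WT in blue and KO in orange, with exact 95% intervals for counts. Hnrnpa1, Hnrnpa3 and Hnrnpa0 lie between -2.20 and -3.44 in all panels, and Srsf9 lies above 0 in each.

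In all, 8 members were called lower in each of the 6 comparisons: Tra2b, Hnrnpa0, Hnrnpa1, Hnrnpa3, Hnrnpab, Hnrnpd, Hnrnpk and Hnrnpl. Hnrnpl, which binds CA repeats, stood at 44.8 CPM in WT germ-like cells against 111 to 125 CPM in the 3 somatic classes, and its log2 ratios lay between -1.31 and -1.52 over both libraries. Tra2b, the paralogue of Tra2a, was at 106 CPM in WT and 105 CPM in KO germ-like cells and at 215 to 265 CPM in the somatic classes. Its log2 ratios ran from -1.04 to -1.34. Tra2a did not follow it: its 203 CPM in WT germ-like cells lay among its somatic levels of 221, 213 and 170 CPM.

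Hnrnpd, which binds AU-rich elements of mRNA, had a germ-like level of 109 CPM in WT and 113 CPM in KO, and its log2 ratio went from -0.99 against granulosa-like to -1.73 against epithelia-like cells in KO. Hnrnpab, its close relative, showed the same gradient with 142 CPM in WT germ-like cells, 240 CPM in granulosa-like cells and 288 and 455 CPM in the theca-like and epithelia-like classes. Hnrnpk stood at 232 CPM in WT germ-like cells and at 386, 486 and 513 CPM in the somatic classes.

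A further 5 members were called lower in 1 to 5 of the comparisons. Srsf3, which links splicing to mRNA export, was lower than in theca-like and epithelia-like cells, with 276 CPM in WT germ-like cells against 611 and 579 CPM. The log2 ratios were -1.15 and -1.07 in WT and -0.98 and -0.94 in KO. Hnrnpdl and Hnrnpa2b1 were also lower against these 2 classes in both libraries, with log2 ratios against theca-like cells in WT of -1.29 for Hnrnpdl and -0.68 for Hnrnpa2b1. Hnrnpr was lower against theca-like cells in both libraries, and Srsf11 against theca-like cells in KO. The remaining 19 members passed the limit in no comparison, among them 8 Srsf genes and all 4 of the Hnrnpf and Hnrnph genes, which bind G-rich RNA.

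Srsf9 was the one member called higher in the germ-like class as a whole, though not at every germ stage described below. It lies at chr5:115327177-115333080 on the plus strand and encodes a short SR protein related to Srsf1. It stood at 266 CPM in WT germ-like cells against 177 CPM in granulosa-like cells, 188 CPM in theca-like and 180 CPM in epithelia-like ones, with log2 ratios of 0.59, 0.50 and 0.57. In KO it stood at 284 CPM against 166, 193 and 172 CPM, with log2 ratios of 0.78, 0.56 and 0.73. It was past the limit in 5 of 6 comparisons and fell short against theca-like cells in WT. After thinning, 53.5% of KO germ-like cells had a Srsf9 UMI, against 35.7% to 40.9% in the somatic classes. Srsf10 and Hnrnpul1 had log2 ratios above 0 in all 6 comparisons without passing the limit.

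The WT and KO ratios of the members lay close to each other. Across the 33 members, Pearson's r between the log2 ratios in WT and in KO was 0.991 for germ-like over granulosa-like and for germ-like over theca-like cells, and 0.986 for germ-like over epithelia-like cells. The sign was the same for 32 of 33 members in each. These correlations are across genes, which are not independent replicates, and the 2 libraries share chemistry and the naming of clusters.

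Theca-like cells came as 2 clusters that differed in proliferation genes and germ markers, and in KO in the summed hnRNP level. The cluster without proliferation genes held 639 WT and 1331 KO cells, and the one with proliferation genes 185 and 556. The summed hnRNP level was 5784.6 CPM in the first and 4892.3 CPM in the second in KO, and 5695.8 and 5895.5 CPM in WT, the opposite order. The Srsf sums were 2171.7 and 2190.1 CPM in KO and 2119.6 and 2373.1 CPM in WT. Hnrnpa1 and Hnrnpa3 were chosen here after their values were seen. In the first cluster, Hnrnpa1 stood at 655 CPM in WT and 687 CPM in KO, and in the second at 555 and 415 CPM. Hnrnpa3 was at 483 and 507 CPM in the first and at 484 and 353 CPM in the second. The sum of germ markers moved with these values: it was 1092.3 CPM in WT and 448.4 CPM in KO in the first cluster, and 3566.8 and 6217.2 CPM in the second. The second cluster was told from the first by its germ markers, at 43.3% against 6.75% of the level in germ clusters. Its Mki67 was also higher, at 312.6 against 26.4 CPM in WT and 244.4 against 19.2 CPM in KO. When clustered at resolution 1.0, 387 theca-like cells (62 WT and 325 KO) had germ markers at 64.4% of that level. Another 357 (124 and 233) had them at 6.76%. The part of germ RNA in the theca-like levels was not tested.

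The promoters of these genes are shown to let the sequence context of the 3 hnRNP genes with the lowest germ to soma ratios and of the one higher SR gene be read side by side. Each runs from 250 bases before to 50 bases after the annotated start, from RefSeq on GRCm38.p6, and 31 of the 33 members had an entry. Capitals mark CCAAT boxes (CCAAT, or ATTGG where the box is on the other strand) and the E-box CACGTG. The windows are Hnrnpa1 at chr15:103240147-103240446 (plus strand), Hnrnpa3 at chr2:75659009-75659308 (plus strand), Hnrnpa0 at chr13:58128507-58128806 (minus strand) and Srsf9 at chr5:115326927-115327226 (plus strand).
Hnrnpa1: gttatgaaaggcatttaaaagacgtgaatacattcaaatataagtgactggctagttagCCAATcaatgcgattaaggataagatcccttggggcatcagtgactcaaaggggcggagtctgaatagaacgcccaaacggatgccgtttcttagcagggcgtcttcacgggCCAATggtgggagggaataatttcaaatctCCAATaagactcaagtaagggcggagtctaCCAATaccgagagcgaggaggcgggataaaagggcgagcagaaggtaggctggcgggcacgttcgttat
Hnrnpa3: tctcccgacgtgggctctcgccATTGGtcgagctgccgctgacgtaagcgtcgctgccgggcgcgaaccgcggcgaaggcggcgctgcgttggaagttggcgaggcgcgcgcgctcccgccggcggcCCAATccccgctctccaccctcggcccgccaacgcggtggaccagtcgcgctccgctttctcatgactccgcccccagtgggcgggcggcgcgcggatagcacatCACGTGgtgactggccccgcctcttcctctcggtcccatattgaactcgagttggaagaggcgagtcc
Hnrnpa0: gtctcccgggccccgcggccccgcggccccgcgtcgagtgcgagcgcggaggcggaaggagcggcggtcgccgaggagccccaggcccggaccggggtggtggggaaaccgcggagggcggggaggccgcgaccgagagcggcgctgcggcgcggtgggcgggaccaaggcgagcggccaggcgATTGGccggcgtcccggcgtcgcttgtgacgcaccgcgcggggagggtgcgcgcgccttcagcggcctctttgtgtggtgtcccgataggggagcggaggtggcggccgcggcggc
Srsf9: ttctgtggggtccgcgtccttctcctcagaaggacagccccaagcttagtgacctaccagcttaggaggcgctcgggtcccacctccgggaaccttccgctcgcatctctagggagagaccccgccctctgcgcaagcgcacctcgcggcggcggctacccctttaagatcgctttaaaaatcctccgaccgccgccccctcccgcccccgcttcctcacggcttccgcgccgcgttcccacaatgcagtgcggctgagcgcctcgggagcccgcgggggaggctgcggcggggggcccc

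Hnrnpa1 has 4 CCAAT boxes in this window, Hnrnpa3 has 2 and an E-box, Hnrnpa0 has 1, and none of the letters searched were found in that of Srsf9. Motifs were searched on both strands, with a gene counted once if any of its windows held the letters. CCAAT was found in 18 of the 31 members (58.1%) and in 41.1% of all 27025 genes of the table. The E2F site TTTCCCGC was found in 5 members (16.1%), Hnrnpr, Hnrnpul1, Srsf1, Srsf10 and Tra2b, against 1.24% of all genes, and the E-box CACGTG in 5 (16.1%) against 8.09%. The NRF1 core GCATGCGC was found in 3 (9.68%) against 3.05%, and TATAAA in 4 (12.9%) against 15.7%. Of the letters that GR binds, the palindrome ACANNNTGT was found in 0 of 31 members and 7.9% of all genes, and AGAACA in 3 members, Hnrnpd, Srsf6 and Tra2a (9.68%), against 21.3%. The members' windows had a median GC content of 68.3%, against 52.7% over all genes, and a median ratio of observed to expected CpG of 0.97 against 0.389. The motif shares over all genes were matched neither for this content nor for the number of windows of a gene. Matched shares were not computed, so the motif shares do not set the members apart. A match is a description of these letters and not a bound site, and no match says only that the letters are absent from the window.

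Germ-like cells were sorted into stages by marker genes to follow the members through meiosis. Premeiotic-like cells (376 in WT and 750 in KO) expressed pluripotency genes, meiotic entry-like cells (416 and 1242) Stra8, recombination-like cells (1694 and 2250) Prdm9 and Dmc1, and late prophase-like cells (1491 and 923) oocyte genes such as Sohlh1. The other 2381 WT and 3928 KO germ-like cells could not be staged. Meiotic entry-like cells also carried premeiotic and recombination markers, so these are ranges along a continuum. Their Prdm9 stood at 282.0 CPM, against 319.4 CPM in recombination-like cells. Sohlh1 stood at 45.3 CPM in late prophase-like cells and was uneven among them. At resolution 1.0 a late prophase-like subcluster of 174 cells had Sohlh1 at 353.8 CPM, and the other, of 2624 cells, had it at 13.85 CPM. The larger premeiotic-like subcluster, of 780 cells, had Stra8 at 1706.8 CPM, above the 1127.3 CPM of meiotic entry-like cells. Stra8 thus does not tell these stages apart, and the first stage holds many cells with high Stra8. Rhox5 was higher in that subcluster, at 354.7 against 77.8 CPM. The summed level of the members was lower at each later stage in both libraries: 6573.7, 6007.2, 5185.8 and 3974.4 CPM in WT, and 6656.9, 5872.9, 5045.2 and 3616.7 CPM in KO. The premeiotic-like sums lay above those of granulosa-like cells, at 6367.5 CPM in WT and 6136.8 CPM in KO. They lay below those of theca-like and epithelia-like cells.

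Between the last and the first stage, 13 members were lower in WT, beside 6.72% of all genes lower, and 17 in KO, beside 8.06% of all genes. No member was higher past the limit, beside 4.97% of all genes in WT and 4.33% in KO. Among genes at 100 CPM or more on either side, 13 of 24 members (54.2%) were lower in WT beside 26.2% of genes, and 17 of 24 (70.8%) in KO beside 28.7%. The 13 members lower in WT were also lower in KO: Srsf3, Srsf7, Srsf9, Srsf10, Hnrnpa0, Hnrnpa1, Hnrnpa2b1, Hnrnpdl, Hnrnpf, Hnrnph1, Hnrnph3, Hnrnpk and Hnrnpm. The 4 that passed in KO alone were Srsf2, Srsf5, Hnrnpa3 and Hnrnpr, and whether they differ between the libraries was not tested. The members' median log2 ratio was -0.61 in WT and -0.85 in KO, where the medians over all genes were 0.17 and -0.01.

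Srsf7, an SR protein that also acts in mRNA export and 3-prime end processing, had the lowest ratio. Its WT levels were 266, 253, 189 and 93.0 CPM from the premeiotic-like to the late prophase-like stage, a log2 ratio of -1.52 (interval -1.60 to -1.43). In KO they were 251, 270, 169 and 84.7 CPM, a log2 ratio of -1.57. Hnrnpm, which binds GU-rich RNA, stood at 331, 379, 309 and 137 CPM in WT and at 358, 399, 303 and 127 CPM in KO, highest at meiotic entry. Hnrnpf had the same order, with 361, 384, 314 and 157 CPM in WT and 364, 371, 315 and 133 CPM in KO, and 4 near-identical copies of its 3-prime end lie in the genome. Srsf9 was highest at meiotic entry, at 476 CPM in WT and 430 CPM in KO, and was lowest in late prophase-like cells at 168 and 173 CPM.

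Hnrnpa2b1 was lower at every step, going from 663 to 610, 446 and 322 CPM in WT and from 721 to 610, 477 and 280 CPM in KO. Srsf3, Hnrnpdl, Hnrnph3, Hnrnpk and Hnrnpr were also lower at every step in both libraries. Srsf3 went from 453 to 300, 299 and 206 CPM in WT, where the middle pair did not differ beyond counting error. Hnrnph3 went from 154 to 144, 98.2 and 87.9 CPM in WT and from 163 to 149, 92.9 and 72.5 CPM in KO. Tra2b, also measured in testis, moved less and stood at 134, 117, 125 and 87.3 CPM in WT, with a log2 ratio that did not pass the limit.

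**Figure D3:**
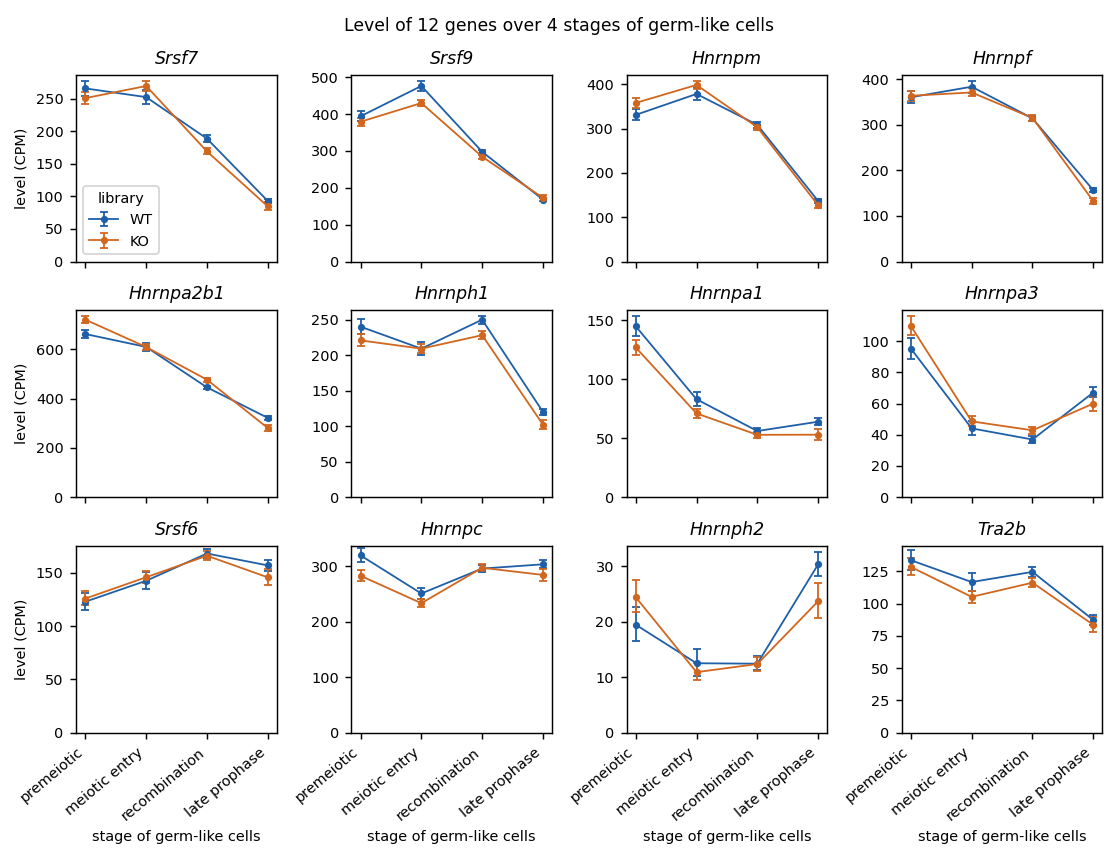
CPM of 12 members in premeiotic-like, meiotic entry-like, recombination-like and late prophase-like cells, WT in blue and KO in orange, with exact 95% Poisson intervals. Srsf7 is lowest in late prophase-like cells, at 93.0 CPM in WT and 84.7 CPM in KO, while Hnrnpa1 has its lowest WT level, 56.1 CPM, in recombination-like cells.

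Not every member had its lowest level in late prophase. Over the 4 stages, 18 members were highest in premeiotic-like cells in both libraries, 5 at meiotic entry (Srsf9, Hnrnpf, Hnrnpm, Hnrnpul1 and Hnrnpul2) and 3 in recombination-like cells (Srsf6, Tra2a and Hnrnph1). The lowest stage was late prophase for 20 members in both libraries. For 6 members, Srsf11, Hnrnpa0, Hnrnpa1, Hnrnpa3, Hnrnpd and Hnrnpu, it was recombination in both. In KO the recombination-like and late prophase-like levels were tied for Hnrnpa1, at 52.9 CPM, and close for Srsf11, at 184 and 191 CPM. The shares of all genes by highest or lowest stage were not counted. Hnrnpa1 stood at 145, 83.1, 56.1 and 64.0 CPM in WT and at 127, 71.0, 52.9 and 52.9 CPM in KO. Hnrnpa0 stood at 206, 137, 85.0 and 110 CPM in WT and at 218, 126, 79.2 and 95.2 CPM in KO. The low level of Hnrnpa1 and Hnrnpa0 in germ-like cells thus held in each stage, and even the premeiotic-like cells stood below all 3 somatic classes.

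Srsf12, a relative of Srsf10 that can act as a splicing repressor, was the one member highest in late prophase-like cells in both libraries, at 7.03 CPM in WT (from 4.40 CPM in premeiotic-like cells) and 6.47 CPM in KO (from 3.35 CPM). At these levels a difference cannot reach the limit. Srsf6 was lowest in premeiotic-like cells, at 123 CPM in WT and 126 CPM in KO, and stood at 157 and 146 CPM in late prophase-like cells. Depth and other transcripts moved along the stages as well. The median cell had 22027 UMIs at the first and 16019 at the last stage in WT, and 15496 and 9526 in KO. Malat1, a nuclear RNA, stood at 1855.6 and 4206.1 CPM at these stages in WT and at 1985.5 and 3354.2 CPM in KO. Their part in the members' levels was not tested.

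The comparison of KO with WT found no member past the limit in any class. In germ-like cells, 0 of 33 members passed, beside 0.176% of all 13675 genes. In granulosa-like cells the count was 0 beside 0.335% of all genes, in theca-like cells 0 beside 0.386%, and in epithelia-like cells 0 beside 0.21%. With so few genes of the whole table past the limit, a count of 0 among 33 does not set the members apart. The members' median log2 ratio of KO over WT was 0.02 in germ-like cells and -0.05, -0.05 and 0.01 in the somatic classes in the same order, with medians over all genes of -0.07, -0.02, 0.01 and 0.03.

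Tra2b, Srsf7, Hnrnpa2b1 and Hnrnph3, the members among the factors followed by qRT-PCR in testis, lay close to 0 in germ-like cells. Tra2b stood at 106 CPM in WT and 105 CPM in KO, a log2 ratio of -0.03 (interval -0.06 to 0.01). Srsf7 stood at 157 and 167 CPM (0.09, interval 0.07 to 0.12), Hnrnpa2b1 at 405 and 442 CPM (0.13, interval 0.11 to 0.15) and Hnrnph3 at 96.8 and 99.2 CPM (0.04). Such values over all germ-like cells mix stages whose shares differ between the libraries, and the part of this was not tested. Across the somatic classes the log2 ratios of these genes lay between -0.10, for Hnrnph3 in granulosa-like cells, and 0.16, for Tra2b in epithelia-like cells.

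In germ-like cells the log2 ratios of all 33 members ran from -0.28 to 0.23. The lowest were those of Srsf12, at 3.86 CPM in KO against 4.67 CPM in WT, Hnrnph2 at 16.2 against 19.4 CPM (-0.26) and Hnrnpu, a chromatin-associated hnRNP, at 47.3 against 56.3 CPM (-0.25). The highest was that of Srsf2, which binds exonic enhancers and also promotes release of paused polymerase, at 152 against 129 CPM (0.23, interval 0.20 to 0.27). Srsf2 was also higher in KO granulosa-like cells, at 121 against 107 CPM (0.17), and Hnrnpu was lower there at 66.1 against 81.8 CPM (-0.31). Several of these intervals exclude 0, but they cover counting error only, and the spread between embryos is not known.

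Among the somatic classes, log2 ratios ran from -0.41 to 0.17 for the granulosa-like class, from -0.22 to 0.17 for the theca-like and from -0.14 to 0.41 for the epithelia-like class. Both extremes of 0.41 in size were those of Srsf12, at 6.35 CPM in KO against 8.44 CPM in WT granulosa-like cells and 5.41 against 4.07 CPM in epithelia-like cells, so its direction was not the same. Hnrnpa0 was lower in KO in granulosa-like (490 against 566 CPM, -0.21) and theca-like cells (665 against 773 CPM, -0.22). In the theca-like cluster without proliferation genes, where germ markers were few, Hnrnpa0 stood at 768 CPM in KO and 778 CPM in WT, with overlapping intervals.

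**Figure D4:**
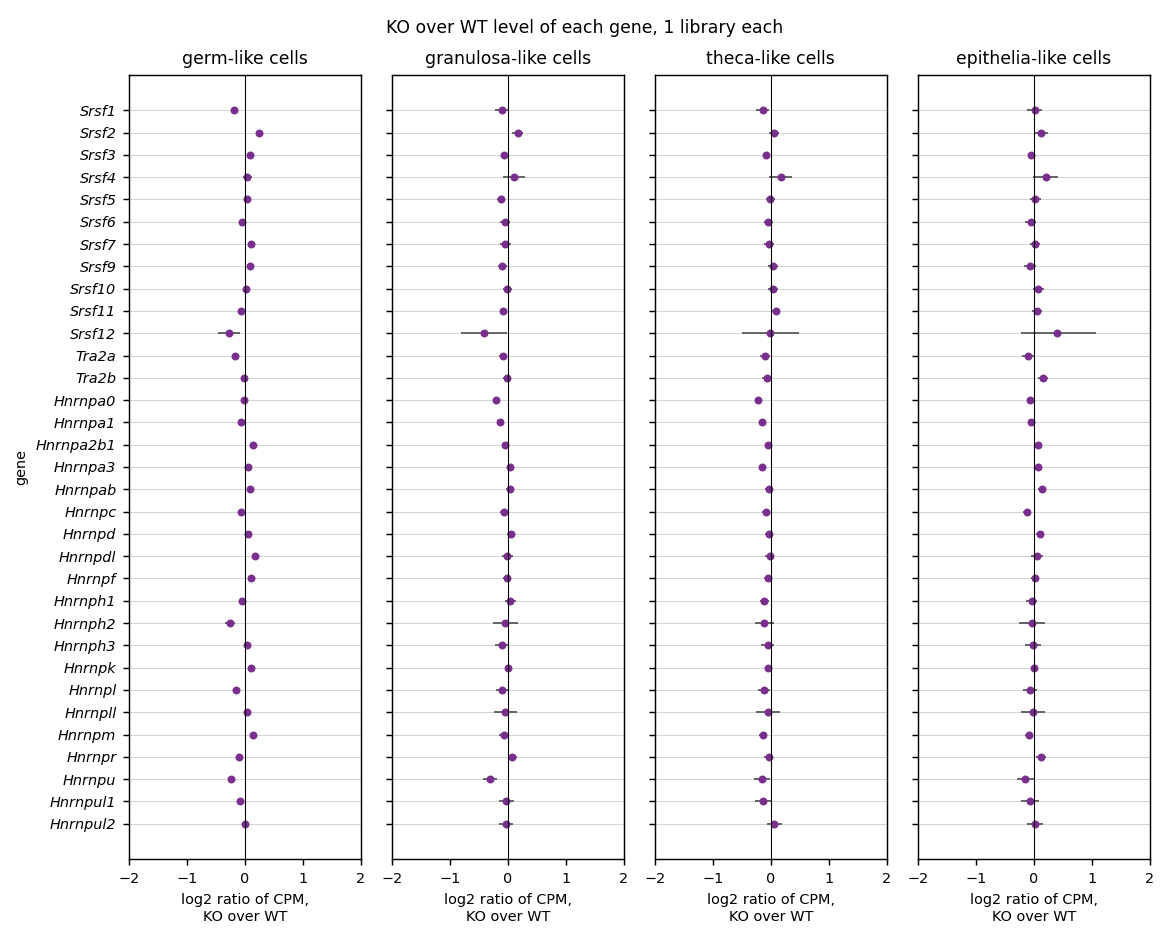
Log2 ratio of CPM in KO over WT for the 33 members in the 4 main classes, with exact 95% intervals for counts, 1 library per genotype. In germ-like cells every member lies between -0.28 and 0.23, and the widest intervals are those of Srsf12.

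Within germ stages, which differ in their shares between the libraries (late prophase-like cells were 23.5% of WT and 10.2% of KO germ-like cells), no member passed the limit either. The size of this gap depended on the clustering. With the members left in, late prophase-like cells were 2025 of 6347 WT and 2424 of 9098 KO germ-like cells. At resolution 1.0 they were 1387 of 6356 and 1411 of 9116. The counts were 0 of 32 tested members in premeiotic-like cells, beside 0.26% of all genes, and 0 of 32 in meiotic entry-like cells, beside 0.357%, with Srsf12 left out for its low count. They were 0 of 33 in recombination-like cells, beside 0.211%, and 0 of 33 in late prophase-like cells, beside 0.206%. The median log2 ratio of the members was 0.02, -0.05, -0.07 and -0.20 from the first to the last stage, with medians over all genes of 0.00, -0.01, -0.02 and -0.12. In late prophase-like cells the lowest ratios were those of Srsf1, at 50.7 CPM in KO against 69.0 CPM in WT (-0.45), Hnrnpl at 36.2 against 47.0 CPM (-0.38) and Tra2a at 136 against 176 CPM (-0.37). In the same cells Hnrnph3 was at 72.5 against 87.9 CPM (-0.28) and Hnrnpa2b1 at 280 against 322 CPM (-0.20). Tra2a was lower in KO at each of the 4 stages, with 175 against 203 CPM in premeiotic-like, 195 against 216 CPM in meiotic entry-like and 224 against 259 CPM in recombination-like cells.

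In the unnamed cluster, the members past the limit were higher than in germ-like cells. The cluster held a germ marker sum of 13976.6 CPM in WT and 14271.0 CPM in KO, with none of the germ markers among its 10 leading genes, which included Gm26870, Tex16, Tex15 and Pclo. Its median mitochondrial share was 1.2% in WT and 1.4% in KO, against 4.6% and 3.8% in germ-like cells, and its median cell had 9028 and 6296 UMIs, against 17700.5 and 12060. Malat1 stood at 4660.9 CPM in WT and 4158.4 CPM in KO, against 2252.3 and 1836.6 CPM in germ-like cells. The part of these in the members' levels was not tested.

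Summed over members, the level in the unnamed cluster was 7310.2 CPM in WT and 6636.1 CPM in KO. These sums lay above those of granulosa-like cells, at 6367.5 and 6136.8 CPM, and below those of theca-like and epithelia-like cells. In WT, 12 members were higher than in germ-like cells, beside 3.59% of all genes, and in KO 9, beside 2.62%. No member was lower past the limit, beside 0.86% of all genes in WT and 0.795% in KO. Among genes at 100 CPM or more on either side, 12 of 25 members were higher in WT beside 19.3% of genes, and 9 of 25 in KO beside 14.2%. The 9 called in both libraries were Srsf1, Srsf2, Srsf5, Srsf10, Srsf11, Tra2a, Tra2b, Hnrnph1 and Hnrnpr. The members' median log2 ratio was 0.46 in WT and 0.45 in KO, and that over all genes 0.22 and 0.25.

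Tra2a differed most, with 535 CPM in the unnamed cluster against 203 CPM in germ-like cells in WT (log2 ratio 1.40, interval 1.34 to 1.46) and 439 against 179 CPM in KO (1.29). Hnrnph1 stood at 431 against 183 CPM in WT (1.24) and 379 against 177 CPM in KO (1.10). Srsf5 stood at 418 against 197 CPM in WT (1.09) and 357 against 202 CPM in KO (0.82), and Srsf1 at 132 against 65.6 CPM (1.01) and 111 against 57.5 CPM (0.95). The 3 hnRNP genes that set germ-like cells apart stayed low: Hnrnpa1 was at 72.4 CPM in WT and 64.5 CPM in KO, Hnrnpa0 at 127 and 116 CPM, and Hnrnpa3 at 70.5 and 81.3 CPM.

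**Figure D5:**
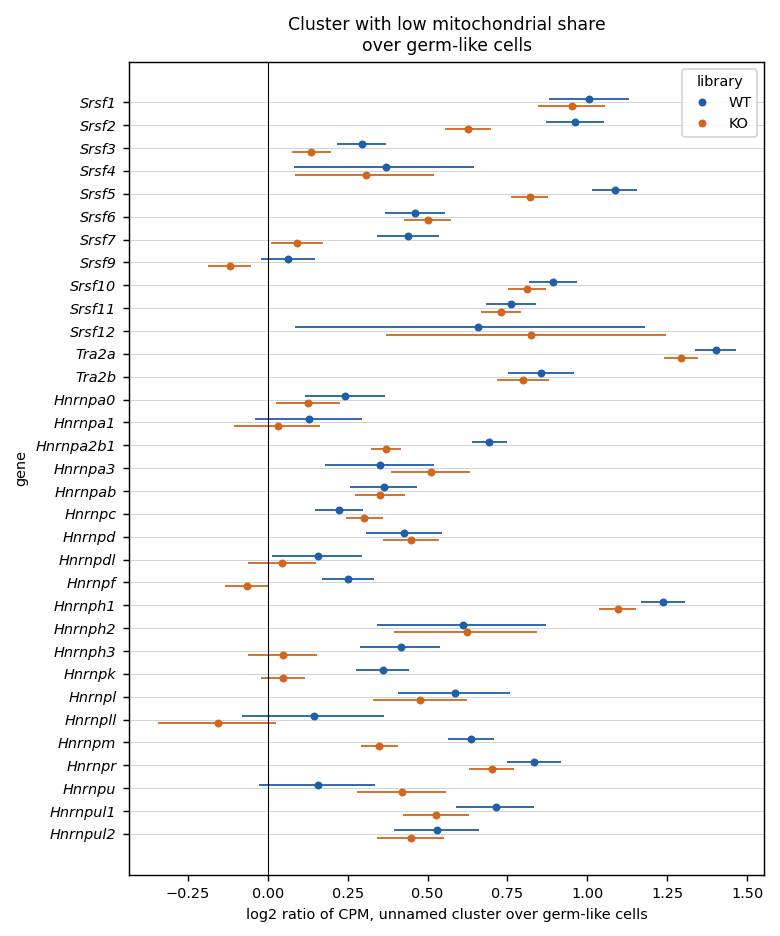
Log2 ratio of CPM in the unnamed cluster over germ-like cells for the 33 members, WT in blue and KO in orange, with exact 95% intervals for counts. Tra2a is highest, at 1.40 in WT and 1.29 in KO, and Hnrnph1 follows at 1.24 and 1.10.

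The annotation of the members was compared with that of all protein-coding genes of the count table, since decay-triggering exons are a known feature of these families. All 33 members were matched to the GENCODE M21 annotation and lie on 17 chromosomes. A transcript marked for nonsense-mediated decay is annotated in 21 members (63.6%), against 21% of 21554 protein-coding genes. These are 9 of the 11 Srsf genes, both Tra2 genes and 10 of the 20 Hnrnp genes. A retained-intron transcript is annotated in 24 members (72.7%), against 42.1%. The annotation depends on how closely a gene has been studied, and the counts used here do not separate transcripts of a gene.

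Other parts of the splicing machinery were followed in lists of genes that are not members. Of 38 genes of the spliceosome core, 7 were higher and 0 lower in germ-like than in granulosa-like cells in WT, with a median log2 ratio of 0.40, and 8 were higher and 0 lower in KO. The largest ratios were those of the helicase Snrnp200 (1.75), the Sm protein Snrpf (1.24) and the GTPase Eftud2 (1.20). These counts stand beside 11.3% of all genes higher and 11.3% lower in WT, and the other 31 core genes passed in neither direction. That background is not matched for level: among genes at 100 CPM or more on either side, 42.7% were higher. The core was not counted among such genes, so its 7 of 38 cannot be called above the background. Its median log2 ratio was 0.17 against theca-like and 0.09 against epithelia-like cells in WT. From the first to the last stage, 8 core genes were lower and 1 higher in WT (6.72% and 4.97% of all genes), with a median of -0.31, and 12 were lower and 1 higher in KO (8.06% and 4.33%). This background is not matched for level either, so the core counts over the stages cannot be called above it. The branch-point binding Sf1 had a log2 ratio of -1.98 in WT, Snrpb -1.75 and Snrpd1 -1.26, while Cwc22 was higher (1.87).

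Cwc22, a spliceosome protein that loads the exon junction complex, was the one core gene past the limit between KO and WT. It stood at 61.5 CPM in KO and 154 CPM in WT germ-like cells, a log2 ratio of -1.32 (interval -1.36 to -1.28). The log2 ratio was -1.06 in granulosa-like cells, -0.93 in theca-like cells and -0.91 in the epithelia-like class, so the difference was present in the 4 main classes of this pair of libraries. Whether the pooled embryos carried the same alleles at Cwc22 is not given in the sources used here, and was not tested.

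Among 10 kinases and partners that set SR protein phosphorylation, of which 9 had enough UMIs, 1 was higher and 3 were lower in germ-like than in granulosa-like cells in WT. In this and the next 3 lists the background is again 11.3% of all genes in each direction, not matched for level. Srpk1 was higher (log2 ratio 1.32), and Clk1 (-2.29), Prpf4b (-1.01) and Srpk2 (-0.97) were lower. Of 15 SR-related proteins, 4 were higher and 4 lower. Rsrc1 (1.19), Luc7l2 (0.99) and Scaf11 (0.82) had the largest positive ratios, and Rsrp1 (-1.70), Rbm39 (-1.27) and Son (-1.25) the largest negative ones. Of 13 hnRNP proteins known by another symbol, 2 were higher, Ptbp2 (1.79) and Pcbp2 (1.00), and 4 lower, Pcbp4 (-3.32), Ptbp1 (-2.57), Pcbp1 (-2.17) and Rbmx (-2.11). Ptbp1 and Ptbp2 are paralogues that bind pyrimidine tracts, and they stood at 15.9 and 103 CPM in WT germ-like cells against 94.8 and 29.9 CPM in granulosa-like cells. Of 31 other splicing regulators, 5 were higher, led by Elavl2 (3.17), Rbpms2 (2.22) and Taf15 (1.37), and 6 lower, led by Mbnl2 (-4.89), Khdrbs3 (-2.80) and Mbnl3 (-2.33). Between KO and WT, no gene of these 4 lists passed the limit in the 4 main classes.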

How the data were processed

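The files deposited by the authors hold UMI counts per gene and cell barcode for 1 KO and 1 WT library, which Cell Ranger 3.0.2 wrote, as the headers of the matrices state. The submitters' processing notes name mm10 and Seurat 3.2.3. Cells were kept by the study's limits: 1500 to 6500 genes and 5500 to 40000 UMIs in WT, 1200 to 5500 genes and 3000 to 30000 UMIs in KO, and under 10% mitochondrial UMIs. This left totals that differ in depth between the libraries, and CPM scales each class to its own total. Counts were log-normalized and clustered with the members left out (Leiden, resolution 0.5, 2000 variable genes, 30 components, 20 neighbours; scikit-learn 1.9.0, leidenalg 0.10.2). Clusters were named from marker genes, so they are not the authors' annotation. Doublets were called with Scrublet in scanpy 1.11.5 at an expected rate of 8% (328 WT and 1070 KO cells) and removed only as an alternative.

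UMIs were summed per class and library (Python 3.11.15, numpy 2.4.6), and intervals are exact (scipy 1.17.1). Named genes in each comparison are up to 8 members past the limit in each direction with the largest log2 ratio, the 4 members measured in testis, and the 8 highest and 4 lowest members in WT germ-like cells. From other lists they are the 3 largest in each direction. The theca-like clusters, the stages' highest members, the pair Ptbp1 and Ptbp2 and the genes of the unnamed cluster beyond this rule were chosen after their values were seen. Members and lists were chosen with earlier results of these data known. Near-identical copies are matches of at least 95% identity over at least 200 bases within the last 500 bases (minimap2 2.31-r1302). The counting steps were tested on simulated data.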

Additional observations from a re-analysis of the deposited data

Results flagged for a closer look

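Hnrnpm differed in direction between germ-like cells and all 3 somatic classes when KO was set against WT. Its log2 ratio was 0.1416 in germ-like cells, at 277 CPM in KO and 251 CPM in WT. It was -0.076 for the granulosa-like class, -0.1386 for the theca-like and -0.0861 for the epithelia-like class. The counting intervals exclude 0 in each class, and the difference was not tested, since each genotype is 1 library. Within germ stages the Hnrnpm log2 ratio was 0.11, 0.08, -0.03 and -0.10 from premeiotic-like to late prophase-like cells. Each of these lay below the 0.1416 over all germ-like cells, and in late prophase-like cells the sign was that of the somatic classes. The stages are mixed in unlike shares in the 2 libraries, and the part of this in the value over all germ-like cells was not tested.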

How the results depend on the processing

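No paired analysis was possible because each genotype has 1 library and the labels give no replicate numbers. The counts of members past the limit between KO and WT stayed at 0 in every class and stage under every alternative run, which included a log2 limit of 0.5. No value of a member that was called turned its sign.

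At a size limit of 0.5, the counts were 3 in WT and 3 in KO for germ-like against granulosa-like cells, 7 and 5 against theca-like cells, 7 in WT against epithelia-like cells, 6 and 7 for the last against the first stage, and 3 and 2 for the unnamed cluster. The shares of all genes past this limit, in the same order, were 8.32% and 7.26%, 7.2% and 5.76%, 7.8%, 2.42% and 2.78%, and 0.586% and 0.446%, so the 3 of 33 members (9.09%) against granulosa-like cells are near the background. With a log2 limit of 0.5 they were 14 for germ-like against granulosa-like cells in WT, 24 and 27 for the stages in WT and KO, and 14 for the unnamed cluster in KO. Here 77.7%, 57.7%, 53.9% and 38.5% of all genes passed, so against granulosa-like cells fewer members than genes did. By direction, 12 members were lower in that comparison (36.4%) beside 37.7% of genes.

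The median log2 ratio of the members against theca-like cells was -0.67 in KO without called doublets and -0.67 as a mean over cells, and -0.53 in WT after thinning. Against epithelia-like cells in KO it was -0.38 after thinning. For the last against the first stage it was -0.82 in WT after thinning, -0.51 in WT at resolution 1.0, -0.99 in KO without cells that carried 3 or more UMIs of markers of another class, and -0.74 in KO with mitochondrial, ribosomal and haemoglobin genes left out of the total. That last scaling gave 0.28 in WT and 0.31 in KO for the unnamed cluster, where it moved the median over all genes from 0.22 to 0.04 in WT and from 0.25 to 0.12 in KO. For the last against the first stage in KO it moved the median over all genes from -0.01 to 0.11. Over members of at least 100 CPM, a choice made after the data were seen, the medians were -0.35 against granulosa-like cells in WT and -0.74 and -1.02 for the stages, beside medians over such genes of 0.35, -0.08 and -0.13. Without cells that carried markers of another class, 14 members passed between germ-like and granulosa-like cells in KO, beside 33.5% of all genes, with 35 granulosa-like cells left.

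The summed level of the members in WT germ-like cells was 4686.4 CPM with common cell limits, 4602.2 without cells of other markers, 4617.3 after thinning, 4626.8 as a mean over cells and 7044.1 with the other scaling. In WT granulosa-like cells it was 6440.6 without doublets, 6429.8 as a mean over cells and 9303.8 with the other scaling. Srsf9 passed the limit against granulosa-like cells in WT in the deposited counts and fell short of it after thinning, at 0.51. Removal of cells with markers of another class could not be run, for too few cells, for KO against WT in the somatic classes, for germ-like against each somatic class in WT, against epithelia-like cells in KO, and for the sum in WT granulosa-like cells. The causes were not tested.

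Counting error is small for most members at these depths, and what limits the comparison of KO with WT is the lack of replicate libraries. Low members such as Srsf12 and Hnrnph2 reach the size limit only through large fold changes. Clusters rest on rebuilt names, and 3-prime counts do not show exon use.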
